A study of Mus musculus with 4 samples.

Results

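Collagen crosslinking and hydroxylating enzymes were examined as 10 genes picked by symbol: the lysyl oxidase gene Lox and its paralogues Loxl1, Loxl2, Loxl3 and Loxl4, the lysyl hydroxylase genes Plod1, Plod2 and Plod3, and the prolyl 4-hydroxylase alpha subunit genes P4ha1 and P4ha2. All 10 were found among the 15424 genes of the deposited table, and all 10 averaged 1 FPKM or more over the columns. The study grew R728T1 cells as subcutaneous tumors in nude mice, which lack mature T cells. The labels call these cells non-SMCs from an Rb/P53 mouse model and give small cell lung cancer as the cell type. The control shRNA targets luciferase (shLuc) and the other Taz (shTaz). Cell line, host and tumor site were the same in both groups, and the labels do not name the vector, the shRNA target sequence or the age of the mice.

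The labels list 2 samples for each group, but the table holds 1 column per group. FPKM, a fragment number scaled to transcript length and library size, is the authors' value for a group, and how the samples of a group were combined is not stated. There is therefore no spread between replicates, no test and no p-value, and "higher" and "lower" below compare 2 numbers only. The order of 2 genes with close levels cannot be judged against any error. In bulk tumor RNA, fewer cells of a type and less RNA per cell cannot be told apart.

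Collagen chains are modified in the endoplasmic reticulum before they fold. Prolyl 4-hydroxylase, a complex of alpha subunits with the beta subunit encoded by P4hb, hydroxylates proline and so stabilizes the triple helix. Lysyl hydroxylases act on lysine; the product of Plod2 hydroxylates the telopeptides, and that of Plod3 also adds sugars. Outside the cell, the copper-dependent lysyl oxidases turn lysine and hydroxylysine side chains into aldehydes that form the covalent crosslinks of collagen and elastin. Several of these genes, among them Lox, Loxl2, Plod2, P4ha1 and P4ha2, are known to respond to hypoxia, and the family is widely studied for its part in stiffening the matrix of solid tumors.

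The lysyl oxidases resemble each other in their catalytic domain, so their sequences were first compared to see how far the genes could share reads. The longest identical coding stretches between paralogues are shown because an error-free read longer than them fits only 1 of the 2 genes. They were read from GENCODE M21 transcripts of mm10, are written 5′ to 3′, and carry in-frame histidine codons in capitals.
Loxl1 and Loxl2: CACaaggccagcttctgcctggaggaca
Loxl1 and Loxl4: gccgagggaCACaaggccagcttctg
Loxl2 and Loxl3: ggcaccaaggtggctgagggcCACaa
Loxl2 and Loxl4: tgcCACaggCACtacCACagcat
Plod1 and Plod3: atggaaCACtatggccagtggtct
P4ha1 and P4ha2: ctgtggatggagcagg

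The stretch of 23 bases shared by Loxl2 and Loxl4 holds 3 histidine codons, of the cluster known to bind the catalytic copper ion. The longest such run within the lysyl oxidases, between Lox and Loxl1, was 32 bases, and it was 24 bases within the lysyl hydroxylases and 16 bases between P4ha1 and P4ha2. Aligned coding bases were 62.5% to 71.6% identical between lysyl oxidase genes, 64.6% to 67.4% between lysyl hydroxylase genes and 66.0% between P4ha1 and P4ha2. Whole coding regions were aligned and gaps left out of these shares, so they do not measure the catalytic domain alone. Lox was 70.4% to 70.8% identical with Loxl2, Loxl3 and Loxl4, although its longest runs with them were 11 to 14 bases. Its coding region has 1233 bases and theirs 2262 to 2328. With gaps left out, a shorter region can be spread over a longer one where it matches, which can raise the share. These shares therefore do not rank how closely the genes are related. The read length is not given in the sources used here.

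Stretches of 50 bases were then looked up in the transcripts of every other gene, on both strands. Lox, Loxl1, Loxl4, Plod1, P4ha1 and P4ha2 shared none. Loxl2 stood apart, with 2299 of its 5267 stretches also present in Gm21451, an unprocessed pseudogene on the same chromosome. In mm10, Loxl2 (Entrez 94352) spans 69609068 to 69695834 of chromosome 14, plus strand. Within its coding region 2090 of 2279 stretches occurred in another gene, so the Loxl2 level is uncertain, because it depends on how the authors' program placed reads that fit more than 1 position. Loxl3 shared 401 of 4049 stretches with Htra2 and Plod3 431 of 3231 with Znhit1, in each case a protein-coding gene that overlaps it on the opposite strand. Htra2 was at 34.3 FPKM under shLuc and 22.3 FPKM under shTaz, and Znhit1 at 58.4 and 38.3 FPKM. The strand setting of the authors' counting is not given in the sources used here, so reads of these overlaps cannot be told apart, and their part in the Loxl3 and Plod3 values was not tested. Plod2 shared 256 of 3614 stretches with Gm38391, which also lies on the opposite strand.

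As deposited, Lox and Loxl1 differed most of the 10 genes, and in opposite directions. Lox, the founding member of the family, was at 31.2 FPKM under shLuc and 59.0 FPKM under shTaz, 1.89 times the control value. Loxl1 (Entrez 16949; chromosome 9 from 58287738 to 58313186, minus strand, mm10), which is known above all for elastic fibre maintenance, was at 116 and 77.9 FPKM, or 66.9% of control. Loxl2, which acts on collagen IV of basement membranes, was at 31.0 and 42.7 FPKM. Lox and Loxl2 were thus nearly equal in the control column and both higher in the shTaz column, Lox by more. Loxl3 was at 19.6 and 16.4 FPKM. Loxl4, the least abundant of the 10 genes, was at 2.63 and 3.28 FPKM.

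As deposited, the summed level of the 5 lysyl oxidase genes was nearly the same, 201 FPKM under shLuc and 199 FPKM under shTaz. The FPKM of all listed genes in the shTaz column summed to 85.3% of those in the shLuc column. Near equality of the lysyl oxidase sums therefore depends on the scaling, while shares within the family do not. Loxl1 made up 58.0% of the lysyl oxidase sum under shLuc and 39.1% under shTaz. The share of Lox was 15.5% and 29.6%, and that of Loxl2 15.45% and 21.4%. The level of Lox was 26.8% of that of Loxl1 in the control column and 75.8% in the shTaz column, a ratio of these ratios of 2.83. This contrast was smaller once base composition was taken into account: the log2 differences of Lox and Loxl1 between the columns lay 1.47 apart as deposited and 0.62 apart with the trend of all genes with GC content removed. FPKM is scaled to transcript length, which allows levels to be set side by side between genes.

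**Figure D1:**
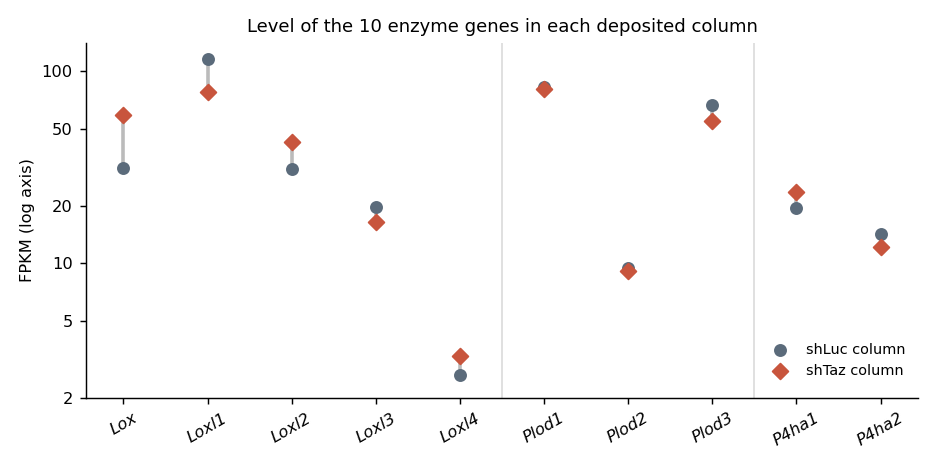
Level of each of the 10 genes in FPKM on a log axis, with a circle for the shLuc column and a diamond for the shTaz column and grey rules between the 3 families. Lox (31.2 and 59.0 FPKM) and Loxl1 (116 and 77.9 FPKM) approach each other, while the symbols of Plod1 and Plod2 nearly coincide.

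The hydroxylase genes differed little between the columns as deposited. Plod1, the broadly expressed helical lysyl hydroxylase, was at 82.7 FPKM under shLuc and 80.8 FPKM under shTaz. Plod2 was at 9.48 and 9.17 FPKM, and Plod3 at 67.1 and 55.1 FPKM. Plod2, whose product prepares telopeptide lysines for hydroxylysine-derived crosslinks, supplied only 5.95% and 6.32% of the family's summed FPKM, and its level was 11.5% and 11.4% of that of Plod1. The 3 genes summed to 159 and 145 FPKM.

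P4ha1, the main alpha subunit gene in most tissues, was at 19.3 FPKM under shLuc and 23.5 FPKM under shTaz, and P4ha2 at 14.1 and 12.2 FPKM. The level of P4ha2 was 73.2% of that of P4ha1 in the control column and 52.2% in the shTaz column. P4ha3, which encodes the remaining alpha subunit and is not among the 10 genes, was the most abundant of the alpha subunit genes, at 44.1 and 30.1 FPKM. It made up 56.9% and 45.7% of their sum, which was 77.6 and 65.8 FPKM. The partner P4hb, the protein disulfide isomerase gene that serves many other clients, was far more abundant, at 424 and 447 FPKM.

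**Figure D2:**
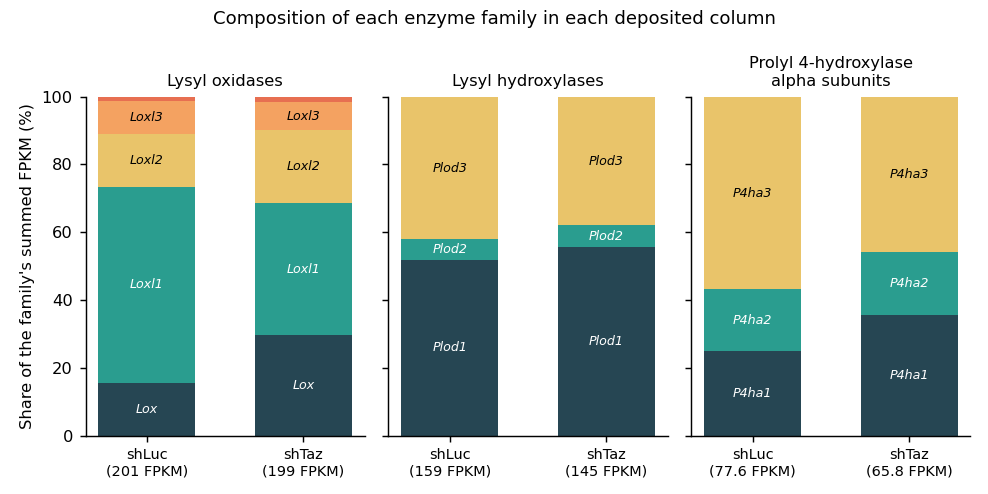
Stacked bars give each gene's share, in percent, of its family's summed FPKM in the shLuc and shTaz columns, with the sum in FPKM under each bar; Loxl4, at 1.31% and 1.65%, is the unlabelled top slice of the lysyl oxidases. Lox takes 15.5% and 29.6% and Loxl1 58.0% and 39.1%, whereas Plod1 is at 51.9% and 55.7% of the lysyl hydroxylases.

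In the control column the order of levels from high to low was Loxl1, Plod1, Plod3, Lox, Loxl2, Loxl3, P4ha1, P4ha2, Plod2 and Loxl4. In the shTaz column it was Plod1, Loxl1, Lox, Plod3, Loxl2, P4ha1, Loxl3, P4ha2, Plod2 and Loxl4. Loxl1 and Plod1 changed places, as did Lox and Plod3, and Loxl3 and P4ha1. The closest neighbours were Lox, 0.607% above Loxl2, and Loxl3, 1.17% above P4ha1, both in the control column, and Plod1, 3.79% above Loxl1, in the shTaz column. With 2 columns no likeness of pattern to other genes could be measured.

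The difference of a gene was taken as log2((shTaz FPKM + 1)/(shLuc FPKM + 1)), which understates changes of genes near 1 FPKM. Lox had the largest difference of the 10 genes, 0.90, and 5.97% of the 11650 genes averaging 1 FPKM or more lay higher. Loxl1 had the most negative, -0.57, and 10.2% of genes lay lower. The others were at 0.45 for Loxl2, 0.27 for P4ha1, 0.24 for Loxl4, -0.03 for Plod1, -0.04 for Plod2, -0.19 for P4ha2, -0.24 for Loxl3 and -0.28 for Plod3. Lox alone was 1.5-fold higher (a log2 difference of at least 0.58), a size that 17.3% of all genes reached in that direction. None was 1.5-fold lower, against 9.96% of all genes, with Loxl1 just short of it, and none was 2-fold different, against 7.21%. The share of members past 1.5-fold was thus no larger than that of all genes. Their median was -0.04, beside 0.12 for all genes, and the median size of a difference, sign aside, was 0.25 for the 10 genes and 0.36 for all genes.

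The differences followed base composition in these 10 genes as they did in the whole table. Over 11055 genes the Spearman correlation of the difference with the GC content of the longest transcript was -0.56, and over the 10 members it was -0.68; genes of 1 table share the libraries, and these values are descriptions. Lox, at 43.9% GC, lay where the trend of all genes stood at 0.43, and Loxl1, at 61.0% GC, where it stood at -0.42. With the GC trend removed (a lowess curve, which also takes out the overall level) the difference of Lox was 0.47 and that of Loxl1 -0.15. Lox kept its direction but was then under 1.5-fold, a size that 7.15% of all genes reached in that direction after removal.

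For other members the removal mattered differently. Loxl2 and Loxl4 stayed higher in the shTaz column with the GC trend removed, at 0.39 and 0.43, and with the length trend removed as well, at 0.30 and 0.36. Plod2, nearly equal as deposited, had the lowest difference of the 10 after removal, and the largest in size, at -0.50 with GC alone and -0.53 with both, because genes as AT-rich as Plod2 (43.0% GC) stood at 0.46. P4ha1 changed sign, to -0.08 and -0.12. Plod1, Plod3, Loxl3 and P4ha2 lay between -0.27 and -0.02 in both settings.

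**Figure D3:**
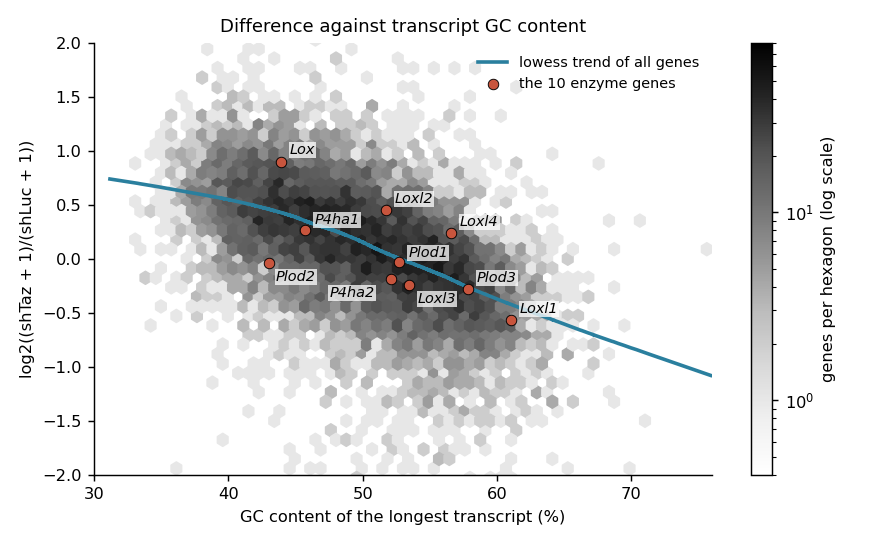
Difference of each gene, as log2((shTaz + 1)/(shLuc + 1)), against the GC content of its longest transcript in percent; grey hexagons count all genes on a log scale, the blue line is their lowess trend, red points are the 10 genes, and 87 genes beyond 2 on the vertical axis are not drawn. Loxl1 and Plod3 lie near the line, Lox and Loxl4 above it and Plod2 below it.

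**Figure D4:**
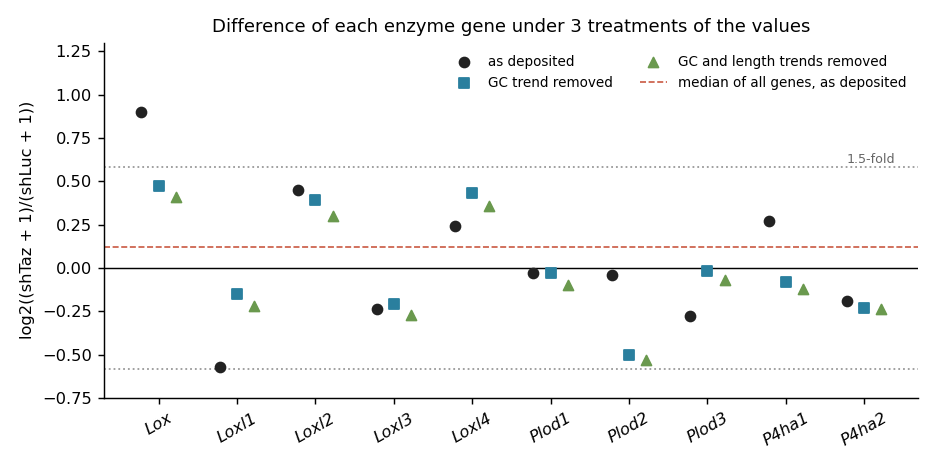
Difference of each of the 10 genes as deposited (circles), with the GC trend removed (squares) and with GC and length trends removed (triangles); dotted lines mark 1.5-fold and the dashed line the median of all genes, 0.12. Lox goes from 0.90 to 0.47 and 0.41, and Loxl1 from -0.57 to -0.15 and -0.22.

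The RefSeq promoter windows of P4ha1 and P4ha2 are shown because these paralogues, both known hypoxia-responsive genes, differed in direction as deposited. With the GC trend removed they did not, at -0.08 for P4ha1 and -0.23 for P4ha2. The 250 bases before the RefSeq start site (GRCm38.p6, plus strand for both) lie at chr10:59323046-59323295 for P4ha1 and at chr11:54100674-54100923 for P4ha2. The P4ha1 window ends next to the GENCODE start of its gene, 59323296. The P4ha2 window lies inside its gene, which starts at 54100095 in GENCODE, so the windows are not placed alike. Capitals mark ACGTG and GCGTG, the core letters of the hypoxia response element, on either strand.
P4ha1: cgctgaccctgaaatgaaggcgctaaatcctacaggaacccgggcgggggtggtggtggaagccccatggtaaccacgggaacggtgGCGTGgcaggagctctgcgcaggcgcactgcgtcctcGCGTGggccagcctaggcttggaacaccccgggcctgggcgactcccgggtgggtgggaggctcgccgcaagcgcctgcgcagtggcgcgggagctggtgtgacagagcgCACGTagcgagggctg
P4ha2: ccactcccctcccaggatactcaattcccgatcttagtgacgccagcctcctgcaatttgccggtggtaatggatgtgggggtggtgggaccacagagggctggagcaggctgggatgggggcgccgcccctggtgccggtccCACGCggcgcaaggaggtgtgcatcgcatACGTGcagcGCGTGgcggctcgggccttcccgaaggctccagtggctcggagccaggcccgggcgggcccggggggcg

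Each of these windows held 1 ACGTG and 2 GCGTG. Among 32851 RefSeq windows of this length, 16.6% held ACGTG, 28.2% GCGTG and 38.6% at least 1 of them. The P4ha1 and P4ha2 windows had 69.6% and 70.0% GC, and the 32851 windows were not matched to them for GC content. The table had windows for 5 of the 10 genes: Plod3 held 4 such matches, and Plod1 and Loxl4 held 1 GCGTG each. GGAATG, the core letters bound by the TEAD partners of TAZ, was in none of the 5 windows and in 12.6% of all. A match is a run of letters and not a shown binding site. Windows for Lox, Loxl1, Loxl2, Loxl3 and Plod2 were not analysed here.

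Several substrate genes of these enzymes were lower in the shTaz column. Of 14 genes for collagen chains and elastin, 4 were 2-fold lower and none 2-fold higher in the shTaz column, beside 3.25% and 3.96% of all genes, and their median was -0.37. Eln, the elastin gene, was at 184 FPKM under shLuc and 31.6 FPKM under shTaz. Col1a2, a chain of type I collagen, was at 334 and 138 FPKM, Col6a2 at 316 and 152 FPKM and the cartilage collagen gene Col2a1 at 14.7 and 5.40 FPKM. Col5a2, at 63.6 and 90.5 FPKM, and Col6a3, at 31.1 and 36.4 FPKM, were higher. With GC and length trends removed the median was -0.32 and 3 genes were 2-fold lower, beside 2.76% of all genes.

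Relative to the fibrillar chains, the summed lysyl oxidases and lysyl hydroxylases were higher in the shTaz column. So were Lox and Loxl1, each taken alone, relative to Eln. The 8 fibrillar collagen chains summed to 2328 and 1578 FPKM. Col1a1, named for its share, made up most of this, at 1375 and 841 FPKM. The summed lysyl oxidases came to 8.63% of the fibrillar sum in the control column and 12.6% in the shTaz column. The lysyl hydroxylases came to 6.84% and 9.20%. The level of Lox was 17.0% of that of Eln in the control column and 187% in the shTaz column, and that of Loxl1 63.3% and 246%. These ratios are as deposited, were chosen after the values were seen and have no replicate check. Base composition is not taken into account in them. The differences as deposited were -2.50 for Eln, 0.90 for Lox and -0.57 for Loxl1. With the GC trend removed they were -2.19, 0.47 and -0.15.

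As deposited, other genes of collagen modification were level or a little lower. Of 9 measured genes for further hydroxylation, prolyl isomerization and glycosylation, none was 1.5-fold different, beside 27.3% of all genes, and as deposited all 9 had a difference under the overall median. P4ha3 (-0.54) and Leprel4 (-0.46), a partner in the lysyl hydroxylation of collagen, were the lowest, and P4hb (0.08) and Leprel2 (0.07), also called P3h3, the highest. GC content was known for 8 of the 9. With GC and length trends removed Leprel2 (0.48), P4hb (0.12) and Crtap (0.05), the last named for this only, lay above the overall median. Ppib (265 and 203 FPKM), also named only for its value after removal, was then the lowest, at -0.56. The list median was -0.23, and -0.06 with both trends removed. Colgalt2, listed as Glt25d2, was below 1 FPKM.

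Among 8 measured genes for collagen chaperones and export, Serpinh1 was the 2-fold lower one, beside 3.25% of all genes. It encodes HSP47, the chaperone that binds the folded triple helix, and was at 115 FPKM under shLuc and 53.1 FPKM under shTaz. Its difference was -1.10, or -0.90 with both trends removed, when none of the list was 2-fold lower, beside 2.76% of all genes. Fkbp10, a prolyl isomerase gene whose product is needed for telopeptide lysyl hydroxylation, was at 76.4 and 54.7 FPKM. Fkbp14 (3.76 and 7.29 FPKM), a related isomerase gene, and the vesicle coat gene Sec23a (4.78 and 6.99 FPKM) were the highest by difference as deposited, but the difference of Sec23a, 0.47, was -0.01 after removal of the GC trend and -0.05 after removal of both. The list median was 0.38, but -0.06 after removal of the GC trend and 0.02 after removal of both.

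All 7 measured propeptide processing genes had a difference under the overall median, with a median of -0.41 and -0.31 after removal of both trends. Pcolce2, an enhancer of procollagen C-proteinase, was at 3.04 FPKM under shLuc and 1.07 FPKM under shTaz, and the procollagen N-proteinase gene Adamts14 at 4.76 and 2.96 FPKM. Bmp1, the C-proteinase gene whose product also cleaves the Lox propeptide, was at 58.2 and 44.4 FPKM. Bmp1 was named after its values were seen, for its link to Lox.

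Of 9 measured crosslink partners and other crosslinking genes, 4 were 2-fold lower, beside 3.25% of all genes. With both trends removed 3 were, beside 2.76%, and Tgm2 was then at -0.97. Fmod, the proteoglycan fibromodulin that guides lysyl oxidase to collagen, was at 368 FPKM under shLuc and 133 FPKM under shTaz. Dcn, or decorin, which is also among the fibroblast markers, was at 13.8 and 1.85 FPKM, and Postn, or periostin, which promotes Lox activation, at 35.5 and 8.29 FPKM. Tgm2, a transglutaminase gene for another kind of crosslink, was at 23.9 and 10.4 FPKM. Fn1, the fibronectin gene, was at 476 and 679 FPKM, and Tgm1 at 1.11 and 1.75 FPKM. The list median was -0.28, and -0.69 with both trends removed.

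Genes that supply cofactors were mixed. The copper transporter gene Atp7a, whose product loads copper into lysyl oxidases in the secretory pathway, was at 1.60 FPKM under shLuc and 3.83 FPKM under shTaz. The ascorbate transporter gene Slc23a2 was at 2.52 and 4.51 FPKM. Atox1, the copper chaperone that hands copper to Atp7a, was at 251 and 149 FPKM. Its difference of -0.75 was -0.41 after removal of the GC trend and -0.03 after removal of both. Of 6 measured genes none had a 2-fold difference, beside 7.21% of all genes. Atp7a came to 0.89 because 1 is added to both values. As deposited 2 of the 6 were 1.5-fold higher and 1 was 1.5-fold lower, beside 17.3% and 9.96% of all genes. With both trends removed none was 1.5-fold different, beside 16.2%. The list median of 0.40 was 0.07 with both trends removed.

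Of 19 hypoxia genes other than the 10 members, 6 were 1.5-fold higher, beside 17.3% of all genes, none was 1.5-fold lower or 2-fold different, and 15 exceeded the overall median. With both trends removed 3 were 1.5-fold higher, beside 7.28% of all genes. Ero1l (5.35 and 10.4 FPKM) and the hexokinase gene Hk2 (9.14 and 16.9 FPKM) were the highest by difference, and Ankrd37 (13.2 and 9.09 FPKM) and Ddit4 (72.7 and 59.1 FPKM) the lowest, although Ddit4 was at 0.02 with both trends removed. Their median was 0.48, and 0.30 with both trends removed. Of the members with known hypoxia response, Lox and Loxl2 lay on the higher side in both settings, P4ha1 as deposited only, and Plod2 and P4ha2 in neither.

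**Figure D5:**
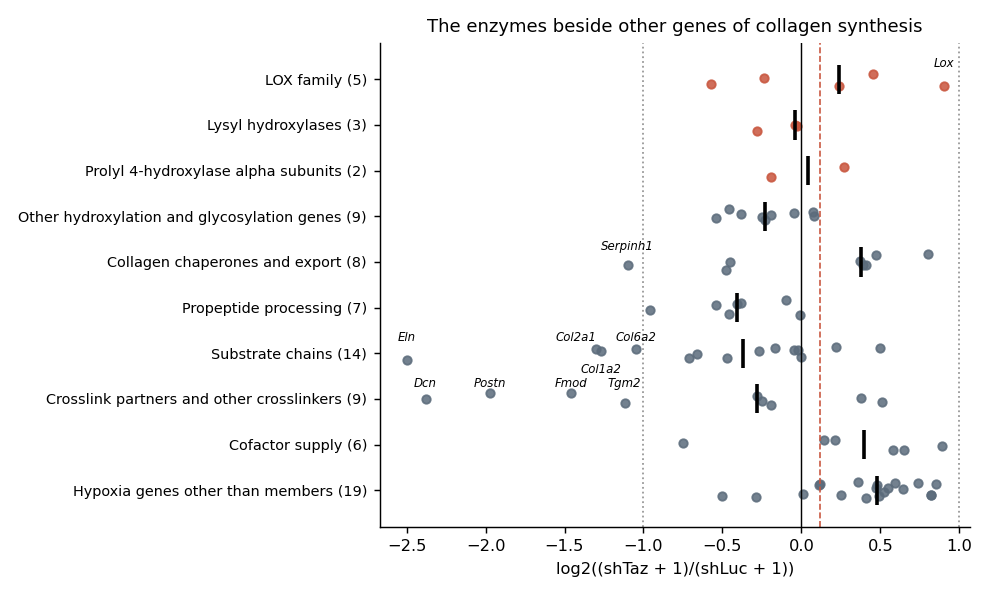
Each point is 1 gene that averaged 1 FPKM or more, placed by its log2((shTaz + 1)/(shLuc + 1)), in rows by list with the number of genes; red points are the 10 enzymes, black bars are list medians, the dashed line is the median of all genes and dotted lines mark 2-fold. The enzymes lie between -0.57 and 0.90, while substrates reach -2.50 (Eln) and crosslink partners -2.38 (Dcn).

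Levels of other genes in these tumors were as follows. Whether tumor cells or host cells expressed them was not tested. Wwtr1, which encodes TAZ, was at 23.4 FPKM under shLuc and 15.1 FPKM under shTaz, and Tafazzin, listed as Taz, at 13.7 and 9.50 FPKM. Of 11 listed fibroblast markers 10 reached 1 FPKM, and the summed level of the list was 141 and 72.7 FPKM, with none at 0. Of the 10, 5 were 2-fold lower and none 2-fold higher, beside 3.25% and 3.96% of all genes. With both trends removed 4 were 2-fold lower, beside 2.76%. The 5 were Dpt (18.4 and 1.16 FPKM), Dcn, Fbln1 (10.9 and 2.52 FPKM), Pi16 (difference -1.22) and Thy1 (26.5 and 12.1 FPKM), while Pdgfra was at 8.75 and 13.5 FPKM. Skeletal muscle markers were higher, with a summed level of 2.76 and 30.4 FPKM over 5 genes, of which Acta1 and Myh4 were listed at 0 in the shLuc column.

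As deposited, the other marker lists did not go one way. The smooth muscle and pericyte markers summed to 60.4 and 47.7 FPKM over 6 genes, most of it Acta2 (50.7 and 29.5 FPKM). Of the 5 that reached 1 FPKM, Rgs5 (difference 1.16) and Des (1.34) were 2-fold higher, beside 3.96% of all genes, and the list median was 0.06. With both trends removed Rgs5 was at 0.61 and Des at 1.48, so that 1 was 2-fold higher, beside 1.67%. The endothelial markers summed to 133 and 88.6 FPKM over 8 genes, with Plvap at 67.2 and 36.2 FPKM, Pecam1 at 11.5 and 10.8 FPKM and Kdr at 1.69 and 2.68 FPKM. Of the 7 that reached 1 FPKM, 3 were 1.5-fold lower, beside 9.96% of all genes, and 0 with both trends removed, beside 8.96%. The macrophage markers summed to 2870 and 2519 FPKM over 7 genes, a lower sum in the shTaz column that lay mostly with C1qa (1868 and 1470 FPKM). Csf1r (132 and 174 FPKM), Itgam (29.1 and 45.7 FPKM), Mrc1 (12.3 and 20.7 FPKM) and Emr1 (difference 0.36) were higher, and the list median was 0.36. With both trends removed all 7 were higher, from 0.06 (Emr1) to 0.40 (C1qb). C1qa was then at 0.22, which was also the list median, and none was 1.5-fold higher, beside 7.28% of all genes. Among markers of neuroendocrine small cell lung cancer, Neurod1, Chga, Calca, Dll3 and Scg3 were not listed, and Insm1 and Syp were below 1 FPKM. Ncam1 was at 39.8 and 43.8 FPKM, Nkx2-1 at 2.51 and 0.939 FPKM and Uchl1, 2-fold lower, at 10.1 and 1.51 FPKM. The part of each of these in the enzyme levels was not tested.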

How the data were processed

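RNA sequencing of 4 subcutaneous tumor samples, 2 per group, was deposited as a table of FPKM values. The submitters' processing notes name TopHat, Trim Galore and build mm10; the FPKM program, annotation, read length and strand setting are not given in the sources used here. The authors deposited 1 FPKM column per group, whose heading both samples of the group carry as a label. Depth is unknown: low values times transcript length lay within 0.1 of whole steps in at most 23.5% (shLuc) and 24.2% (shTaz) of cases, against 20% by chance.

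Differences are log2((shTaz + 1)/(shLuc + 1)) over the 11650 genes averaging 1 FPKM or more, with no test. The plan of limma for a column per sample was not used. Trends were removed with lowess (span 0.3, statsmodels 0.14.6) on the longest GENCODE M21 transcript, known for 94.9% of genes. The removal was tried on simulated data whose changed genes were picked without regard to GC content or length. That trial cannot show what removal does to real changes that follow GC content. Coding regions were aligned with Biopython 1.88. Members and lists were chosen with earlier results of these data known. Named from each list other than the marker lists were up to 2 genes with the largest positive and 2 with the largest negative difference, and all 2-fold genes; exceptions are given as such, and markers were picked after their values were seen. One listed marker gene is not reported here. Gene positions are from mm10.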

Additional observations from a re-analysis of the deposited data

How the results depend on the processing

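No replicate could be left out, and no p-value, SD or counting error can be given for any value. No paired analysis was possible because the table has 1 column per group and no column per sample. The 8 alternatives were quantile normalization, median-ratio scaling, a pseudocount of 0.1, a floor of 5 FPKM on the mean (which leaves out Loxl4), no floor, and removing the trend of GC content, of length or of both; removal of both with protein-coding transcripts was chosen after seeing the data, since the longest transcripts of Plod1 and P4ha2 keep an intron.

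Lox was higher and Loxl1 lower in every setting run. Lox fell under 1.5-fold with the GC trend removed (0.47), with both trends removed (0.41) and with protein-coding transcripts (0.38), so that 0 members were then 1.5-fold higher, beside 1 as deposited. Loxl1 passed 1.5-fold with median-ratio scaling (-0.71) and with the length trend removed (-0.73), which gives 1 member 1.5-fold lower in place of 0. Plod1 turned to 0.13 with quantile normalization and 0.06 with protein-coding transcripts. P4ha1 turned to -0.08 with the GC trend removed, -0.12 with both removed and -0.18 with protein-coding transcripts. The cause was not tested. No other member changed its direction or its side of 1.5-fold in these settings. The split of 2-fold genes over the whole table was 461 higher and 379 lower as deposited, 166 and 349 without the GC trend, 293 and 391 without the length trend, 185 and 305 without either, 309 and 494 under median-ratio scaling and 294 and 455 under quantile normalization.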

Other observations

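The base composition of Lox differed between its coding and untranslated parts. Its coding region of 1233 bases, the shortest of the 10 genes, had 59.4% GC, while the whole transcript of 4741 bases had 43.9%, since 3508 bases are untranslated. Loxl1 had 64.7% GC in its coding region and 61.0% in its transcript. Plod2 and P4ha1 were low in both, with 44.2% and 47.0% GC in the coding region, and the last bases of their codons had 45.1% and 49.3% GC, beside 63.5% to 76.1% in the other 8 genes. The GC content that the trend assigns to Lox therefore rests on the untranslated part of the annotated transcript, and which of its transcripts these tumors use was not tested.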
